A study of Mus musculus with 4 samples.

Results

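CD40 loss alone was examined as the difference between 2 droplet-based scRNA-seq libraries of thymic epithelial cells (TECs), Cd40-/- Control and WT-Control. All their cells in which 200 genes or more were detected and mitochondrially encoded genes took no more than 25% of the UMIs were included, 8591 and 10218 cells, or 18809 of the 28055 cells of the series. WT-Control mice were wild-type C57BL/6 females, and Cd40-/- Control mice lacked CD40 from conception, in all tissues, on a C57BL/6 background, with their sex not given in the sources used here. Both groups received rat control IgG under the skin at 4 weeks of age, and EpCAM+ CD45- TER119- cells were sorted at 6 weeks of age. Each library is 1 pool of 3 mice, so genotype and library cannot be told apart, no test between genotypes was possible, and the intervals given are 95% intervals of counting error only. The other 2 libraries, WT-RANKL-Ab with 7164 cells and Cd40-/- RANKL-Ab with 2082, differ by the same genotype but came from mice given a neutralizing antibody against RANKL. They served for a second look at each gene, as the RANKL-Ab pair.

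CD40 is a TNF receptor family member on medullary TECs (mTECs) that is engaged by CD40 ligand on thymocytes, and, with RANK and the lymphotoxin β receptor, it activates canonical and non-canonical NF-kB. CCL21+ mTECs attract positively selected thymocytes, while Aire+ mTECs express tissue-restricted antigens, arise through cycling transit-amplifying TECs (TA-TECs) and give rise to mimetic cells such as tuft and microfold cells. Cortical TECs (cTECs) carry the Notch ligand and the thymoproteasome that early thymocytes depend on, and TEC progenitors feed both lineages.

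The cells kept of WT-Control held 95277834 UMIs and those of Cd40-/- Control 66295255, with medians of 7621.5 and 6267 UMIs per cell. The 2 Cd40-/- libraries shared 205 cell barcodes, against 17 to 116 for the other pairs of libraries. Of these barcodes, 183 held under 1/5 as many UMIs in Cd40-/- Control as in Cd40-/- RANKL-Ab (medians of 702 and 24963), and together they held 0.214% of the UMIs of Cd40-/- Control. Values that rest on them are given below with and without them. Cd40 was lower in both libraries labelled Cd40-/-, and Xist was present while Ddx3y, Eif2s3y and Uty had 0 UMIs in all 4 libraries. A further Y gene, Kdm5d, had 4 UMIs in WT-Control, 2 in Cd40-/- Control and 0 in both RANKL-Ab libraries.

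Cells were assigned to 13 classes by the summed UMIs of marker genes per 10000 UMIs of the cell, which are called gates here. Most gates held markers of their own among their 10 leading genes and none of another class, for example Prss16 and Psmb11, a thymus-specific protease and the thymoproteasome subunit, in cTEC-like cells, and Ackr4 and Dcn in progenitor-like cells. The 10 leading genes of the Aire+ mTEC-like gate, such as Calca and Fgf21, held none of its markers. Those of the neuroendocrine-like gate held 3 of its markers, but the first was Pth, the parathyroid hormone gene. Parathyroid cells had no gate of their own, so the name neuroendocrine-like describes the markers used and no more. The 10 leading genes of the gate on Hes6 and related markers held 2 of its markers but 5 skeletal muscle genes (Acta1, Myl1, Myog, Mylpf and Ckm). It is therefore called the Hes6 gate and given no cell type name. Levels are given as CPM, the UMIs of a gene summed over the cells of a gate and scaled to the total UMIs of those cells. A gene is called past the fold where the log2 ratio of Cd40-/- over WT, with 10 CPM added to both levels, was at least 1 in size and both libraries together held at least 50 UMIs of it in that gate.

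Cd40 was lower in Cd40-/- Control in each of the 6 gates described. In Aire+ mTEC-like cells Cd40 stood at 175 CPM (171 to 179) in WT-Control and at 7.21 CPM (6.11 to 8.46) in Cd40-/- Control. In TA-TEC-like cells Cd40 was 121 and 5.57 CPM, in cTEC-like cells 79.8 and 8.89, and in CCL21+ mTEC-like cells 38.7 and 3.70. Cd40 was low in WT-Control in tuft-like cells, at 13.6 CPM, and in progenitor-like cells, at 13.3 CPM. Among the gates of WT-Control the order of Cd40 was thus Aire+, TA, cTEC, CCL21+ and then tuft-like and progenitor-like cells, whose counting intervals overlapped. In CCL21+ mTEC-like cells of the RANKL-Ab pair Cd40 was 24.4 CPM in WT-RANKL-Ab and 2.50 in Cd40-/- RANKL-Ab. The gene lies at chr2:165055627-165072948 on the plus strand (GRCm38). UMIs that remained in Cd40-/- cells were read from the 3′ end of transcripts, and which part of the gene the allele lacks is not given in the sources used here.

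Medullary cells made up less of the Cd40-/- Control library, and cTEC-like, progenitor-like and T cell-like cells more. CCL21+ mTEC-like cells were 33.4% of cells (32.5 to 34.3) in WT-Control and 22.9% (22.0 to 23.8) in Cd40-/- Control. Aire+ mTEC-like cells were 36.4% (35.5 to 37.4) and 26.1% (25.2 to 27.0). Both thus had a smaller share, by log2 ratios of -0.54 and -0.48, and the number of Aire+ cells per 100 CCL21+ cells was 109 and 114. TA-TEC-like cells went the other way, with 5.79% and 7.40% of cells, so that 17.4 cycling cells stood beside 100 CCL21+ cells in WT-Control and 32.3 in Cd40-/- Control. The Hes6 gate held 1.56% and 1.87% of cells, with overlapping intervals.

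Of the mimetic classes, tuft-like cells were 4.33% and 3.34% of cells, and enterohepatic-like cells, which carry liver and gut genes, 2.35% and 1.44%. The intervals of microfold-like (3.11% and 2.69%), ciliated-like (0.930% and 0.733%), keratinocyte-like (0.842% and 0.908%) and neuroendocrine-like cells (0.294% and 0.326%) overlapped between the libraries. Set against Aire+ cells, tuft-like cells numbered 11.9 and 12.8 per 100, with a log2 ratio of 0.11 (-0.12 to 0.34). Enterohepatic-like cells numbered 6.45 and 5.53 per 100 Aire+ cells, with a log2 ratio of -0.22 (-0.54 to 0.10). Microfold-like cells numbered 8.54 and 10.3 per 100 Aire+ cells (log2 ratio 0.27, 0.015 to 0.53) and keratinocyte-like cells 2.31 and 3.48 (0.59, 0.14 to 1.04), so that for these 2 classes the interval was clear of 0.

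The cTEC-like share was 1.21% (1.01 to 1.45) in WT-Control and 7.95% (7.39 to 8.54) in Cd40-/- Control, a 6.55-fold difference (5.40 to 8.0). By flow cytometry, the paper found cTEC numbers unchanged by Cd40 deficiency, which is a count of cells rather than a share of a library. It also reports that cTECs of WT-Control were less frequent by scRNA-seq than by flow cytometry. Cells with markers of both T cells and cTECs, as thymocyte-cTEC complexes or doublets would show, were 0.343% and 4.42%, a 12.9-fold difference (9.12 to 18.8). Progenitor-like cells were 1.42% and 3.70%, a 2.61-fold difference (2.14 to 3.20). The markers of this gate did not all go that way. Over all cells Ackr4 (14.0 and 35.8 CPM), Serpinf1 (7.53 and 17.6) and Dcn (105 and 178) were higher. Ces1d was lower (72.3 and 25.9), and Fmod (6.15 and 6.82) and Pdpn (25.7 and 27.6) differed little. Within the gate Ces1d (186 and 47.4), Fmod (167 and 69.6) and Dcn (2271 and 1751) were lower, and Pdpn, Ackr4 and Serpinf1 higher. T cell-like cells, which the sort on CD45 should remove, were 0.832% and 4.40%, a 5.29-fold difference (4.17 to 6.77). Their median depth was 2935 UMIs in WT-Control and 1395.5 in Cd40-/- Control. These 4 classes made a larger part of Cd40-/- Control together, and a larger share of one class lowers the shares of all others in a library of fixed size. Cells in no gate were 7.19% of WT-Control and 11.8% of Cd40-/- Control. Cells with scores under 1.5 times the limit made up 8.21% and 14.4% of the CCL21+ gate and 14.2% and 21.5% of the Aire+ gate. The part of cells that missed the limits in the smaller CCL21+ and Aire+ shares was not tested. Without the barcodes shared between the Cd40-/- libraries, the log2 ratio of the cTEC-like share was 2.62 in place of 2.71, and that of cells with both kinds of markers 3.44 in place of 3.69.

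**Figure D1:**
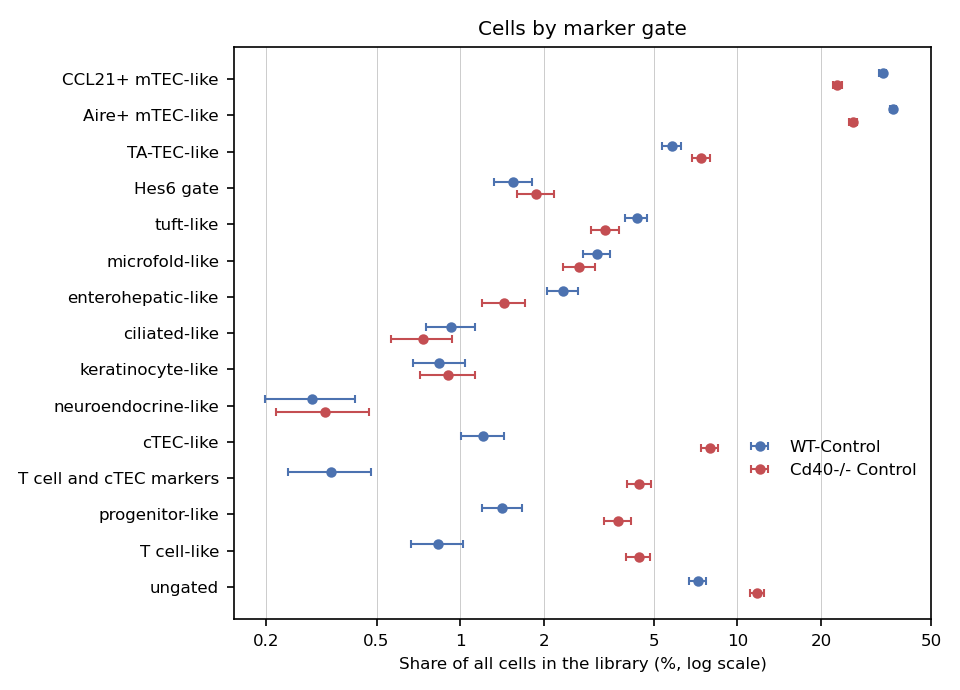
Share of all cells in each marker gate (percent, log scale) in WT-Control (blue) and Cd40-/- Control (red), with exact 95% binomial intervals as bars. The CCL21+ and Aire+ points of Cd40-/- Control lie to the left of those of WT-Control, while its cTEC-like point (7.95% against 1.21%) and its T cell-like point (4.40% against 0.832%) lie to the right.

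In the RANKL-Ab pair the cTEC-like share was again larger in the Cd40-/- library (7.34% and 16.4%), as were the progenitor-like share (6.91% and 11.1%) and the T cell-like share (3.27% and 9.32%). The CCL21+ share was 49.4% and 49.0% there, with a log2 ratio of -0.01 (-0.11 to 0.09), so the smaller CCL21+ share of the control pair was not seen there. The difference between the pairs was not tested. Aire+ mTEC-like cells numbered 510 in WT-RANKL-Ab and 5 in Cd40-/- RANKL-Ab, too few for their genes to be compared.

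In CCL21+ mTEC-like cells of Cd40-/- Control, F3, Fn1 and Sparc were among the higher genes and Msln, Trem2, Ltb and Spib among the lower ones, beside Cd40. Of 12782 genes compared, 58 (0.454%) were higher and 66 (0.516%) lower past the fold. With edgeR's TMM scaling the split was 35 higher and 94 lower, and with totals that left out Ccl21a, mitochondrial and ribosomal protein genes 50 and 107. Of the 55 higher genes with enough UMIs in the RANKL-Ab pair, 15 were also higher past the fold there and 0 lower, where 144 of 11954 genes (1.2%) were higher. Of the 58 lower genes with enough UMIs in it, 13 were also lower past the fold and 6 were higher, where 150 genes (1.25%) were lower. With TMM scaling 8 genes were higher and 19 lower in both pairs. The 28 genes were singled out after their values were seen.

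The most negative log2 ratio in CCL21+ mTEC-like cells was that of Msln, which encodes mesothelin, a surface protein anchored by a lipid. Its level was 126 CPM in WT-Control, 10.3 in Cd40-/- Control, 76.3 in WT-RANKL-Ab and 9.29 in Cd40-/- RANKL-Ab. Both wild-type levels stood above both Cd40-/- levels, and the log2 ratio without added CPM was -3.60 (-3.87 to -3.35) in the control pair. Msln was lower past the fold in 2 further gates, with 68.3 and 17.7 CPM in Aire+ mTEC-like cells and 79.4 and 11.7 CPM in TA-TEC-like cells.

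The other lower genes had varied roles. Ltb, which encodes lymphotoxin β, was 25.5 CPM in WT-Control and 4.19 in Cd40-/- Control, and 25.2 and 3.33 in the RANKL-Ab pair. Spib, an ETS family transcription factor of maturing mTECs, was 68.7 and 28.9 CPM, and 70.0 and 29.5 in the RANKL-Ab pair, so its log2 ratio was -1.02 in both pairs. Ubd, which encodes the ubiquitin-like protein FAT10, was 1577 and 737 CPM, and 702 and 170 in the RANKL-Ab pair. For these genes the wild-type library lay above the Cd40-/- library within each pair. Across the pairs, Ubd was lower in WT-RANKL-Ab (702 CPM) than in Cd40-/- Control (737 CPM).

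Trem2, a myeloid receptor gene, was 42.8 and 10.8 CPM in the control pair and 65.4 and 3.69 in the RANKL-Ab pair. Kremen2, a receptor for the Wnt inhibitor Dickkopf, was 38.5 and 11.6 CPM, and 56.5 and 9.29. Il4i1, an enzyme that breaks down phenylalanine, was 106 and 48.0 CPM, and 78.1 and 11.7. Gja4, a gap junction protein gene, Cxcl9, an interferon-induced chemokine gene, Stmn2, Igfals and Gm13305 completed the set with Cd40 and Msln, at log2 ratios between -1.40 and -1.05 in the control pair. Gm13305 belongs to a family of near-identical gene copies, between which reads cannot be assigned with certainty.

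Several of these genes were also present in Aire+ cells. In Aire+ mTEC-like cells Ubd was 6666 CPM in WT-Control and 4827 in Cd40-/- Control, Spib 103 and 68.3, Il4i1 441 and 429, Ltb 92.4 and 51.7, and Trem2 8.76 and 7.60. None of these passed the fold in that gate. The summed Aire+ markers in CCL21+ mTEC-like cells had a median of 6.28 UMIs per 10000 in WT-Control and 4.23 in Cd40-/- Control, and their part in these differences was not tested.

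Promoters of 3 genes that were lower in both pairs are shown because they match the NF-kB consensus by sequence. Sequences run from 250 bases before to 50 after the annotated start (RefSeq, GRCm38.p6), 5′ to 3′ on the gene's strand, with matches to the NF-kB consensus (kappaB) or to the AP-1 consensus TGANTCA in capitals. Both strands were searched. For Ltb the window is chr17:35194257-35194556 on the plus strand, for Spib chr7:44532022-44532321 on the minus strand, and for Ubd chr17:37193642-37193941 on the plus strand. F3, which was higher in both pairs, is shown for its AP-1 matches, at chr3:121723287-121723586 on the plus strand.
Ltb: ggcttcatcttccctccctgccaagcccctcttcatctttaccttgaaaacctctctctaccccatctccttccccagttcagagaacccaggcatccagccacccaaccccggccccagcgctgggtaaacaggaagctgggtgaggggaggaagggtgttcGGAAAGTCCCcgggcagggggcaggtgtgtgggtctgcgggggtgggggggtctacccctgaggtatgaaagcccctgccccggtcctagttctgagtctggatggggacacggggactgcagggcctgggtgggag
Spib: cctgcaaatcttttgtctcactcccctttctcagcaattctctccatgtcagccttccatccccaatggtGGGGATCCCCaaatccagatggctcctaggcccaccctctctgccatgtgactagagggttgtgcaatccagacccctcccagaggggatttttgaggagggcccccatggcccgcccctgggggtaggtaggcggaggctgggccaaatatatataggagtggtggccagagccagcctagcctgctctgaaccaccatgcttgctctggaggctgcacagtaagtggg
Ubd: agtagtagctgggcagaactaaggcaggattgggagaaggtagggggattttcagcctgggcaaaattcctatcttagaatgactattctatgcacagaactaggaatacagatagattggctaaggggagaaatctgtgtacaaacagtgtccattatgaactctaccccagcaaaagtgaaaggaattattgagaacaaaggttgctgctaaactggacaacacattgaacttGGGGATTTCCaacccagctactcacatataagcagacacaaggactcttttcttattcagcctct
F3: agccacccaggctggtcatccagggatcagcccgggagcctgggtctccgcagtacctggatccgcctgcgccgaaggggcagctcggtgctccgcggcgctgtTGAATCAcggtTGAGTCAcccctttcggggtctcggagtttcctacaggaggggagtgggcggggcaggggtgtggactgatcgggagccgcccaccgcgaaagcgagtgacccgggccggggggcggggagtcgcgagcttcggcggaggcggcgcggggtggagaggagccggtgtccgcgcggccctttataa

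The kappaB match began 87 bases before the start of Ltb, 180 before that of Spib and 15 before that of Ubd. Kremen2 held 3 matches, 2 of which overlapped. Of the 13 lower genes, 10 had an entry in the promoter table and 4 of these held a kappaB match, in 4 of their 12 promoters (33.3%). Over all 32851 promoters of the table, 1480 (4.51%) held one. Of the 15 higher genes, 12 had an entry and 1, Cpne8, held a kappaB match. AP-1 matches stood in 1 of the 20 promoters of the higher genes, that of F3, and in 2 of the 12 promoters of the lower genes, those of Cxcl9 and Trem2, against 7.81% of all promoters. The AP-1 matches of F3 lay 146 and 135 bases before the start. A match is a description of the letters and not a binding site.

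The higher genes of CCL21+ mTEC-like cells included F3, which encodes tissue factor, the initiator of coagulation. F3 was 48.6 CPM in WT-Control and 140 in Cd40-/- Control, and 22.3 and 210 in the RANKL-Ab pair. Fn1, which encodes the matrix glycoprotein fibronectin, was 16.5 and 59.5 CPM, and 23.6 and 124. Sparc, a collagen-binding matrix protein gene, was 235 and 507 CPM, and 277 and 848. Each of these 3 genes was more abundant in both Cd40-/- libraries than in both wild-type ones.

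The collagen genes Col3a1 and Col5a2 were higher in both pairs as well, Col3a1 with 4.85 and 24.96 CPM in the control pair and Col5a2 with 16.9 and 46.4. Cyr61, a matrix-associated growth regulator gene that responds to YAP and AP-1, was 216 and 468 CPM, and Errfi1, a feedback inhibitor of the EGF receptor, 38.0 and 86.9. Atp1b1, Scn7a, Igfbp7, Cobl, Pmp22, Cast, Cpne8 and AY036118 were the others, with log2 ratios between 1.00 and 2.25 in the control pair. The ratio of AY036118, 2.25, was the most positive of the gate. AY036118 lies near Gm42418 on chromosome 17, a gene that was higher past the fold in every gate. Gm42418 was 3218 and 11239 CPM in CCL21+ mTEC-like cells of the control pair. Of the 20 genes of the extracellular matrix list, 20 had ratios above 0 in these cells. Of them 3 were higher past the fold, where 0.454% of all genes were, and the median was 0.44 against 0.07 for all genes. In the RANKL-Ab pair the median of the matrix list was 0.83. Fibroblast markers, which include Col3a1, were also higher in the gate, with 8.69 and 32.1 CPM summed over their 5 members, each of which was above 0 UMIs in both libraries. Progenitor markers had medians over the cells of the gate of 1.02 and 2.41 UMIs per 10000 and cTEC markers of 1.12 and 2.14. The part of these markers in the matrix genes was not tested.

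**Figure D2:**
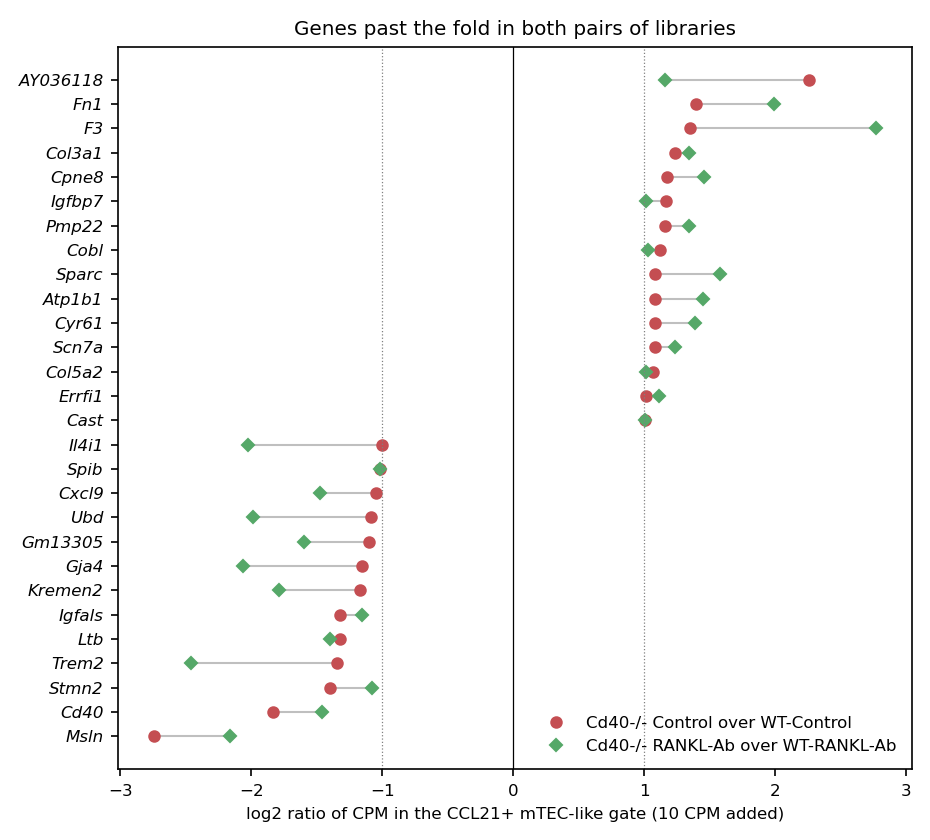
Log2 ratios of CPM (10 CPM added) in the CCL21+ mTEC-like gate for the 28 genes past the fold in the same direction in both pairs, with the control pair as red circles and the RANKL-Ab pair as green diamonds. Dotted lines mark the fold threshold, and F3 is the gene whose ratio is farther from 0 in the RANKL-Ab pair by the widest margin (2.77 against 1.35).

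The make-up of the CCL21+ gate differed between the libraries. Cells of the cluster led by Matn1, Kremen2 and Lypd1 (cluster 1 of a clustering of both libraries) were 22.1% of the gate in WT-Control (20.8 to 23.6) and 9.85% in Cd40-/- Control (8.57 to 11.3). Cells of the cluster led by F3, Igfbp2 and Scn7a (cluster 5) were 18.7% (17.4 to 20.1) and 34.0% (31.9 to 36.1). Progenitor markers gave cluster 5 its highest score over all classes, although 92.8% of its cells passed the CCL21+ gate. Cells of the cluster led by Cyp2f2, Ccl11 and Cxcl14 (cluster 6) were 39.7% and 30.9%, and those of the cluster led by Atf3, Fosb and Cyr61 (cluster 8) 7.86% and 12.95%. Genes that lead a cluster differ between gate totals in part through these shares, so each cluster was also compared on its own.

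Sizes within clusters differed from gene to gene. Each of the 15 higher genes had a ratio above 0 in every cluster with at least 50 UMIs of it, and 12 of the 13 lower genes a ratio below 0 in every such cluster. The exception was Cxcl9, whose ratios lay between -0.999 and 0.284. These genes were picked by the totals of the same cells, so a like direction in the clusters was likely beforehand and is only described. Only 3 of the 15 higher and 3 of the 13 lower genes were past the fold in every cluster with at least 50 UMIs of them. Clusters with at least 50 UMIs of a gene ranged from 1 for Pmp22 and 2 for Col3a1 to 5 for Cyr61. Msln was past the fold in all 4 such clusters, from 251 and 24.9 CPM in cluster 1 to 34.9 and 4.02 CPM in cluster 5. Fn1 was past the fold in all 4 of its clusters too, for example with 8.70 and 54.4 CPM in cluster 8. In cluster 3 Fn1 had only 8 and 5 UMIs. F3 was past the fold only in cluster 5, with 129 and 299 CPM, and had ratios of 0.48 and 0.51 in its 2 other clusters.

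**Figure D3:**
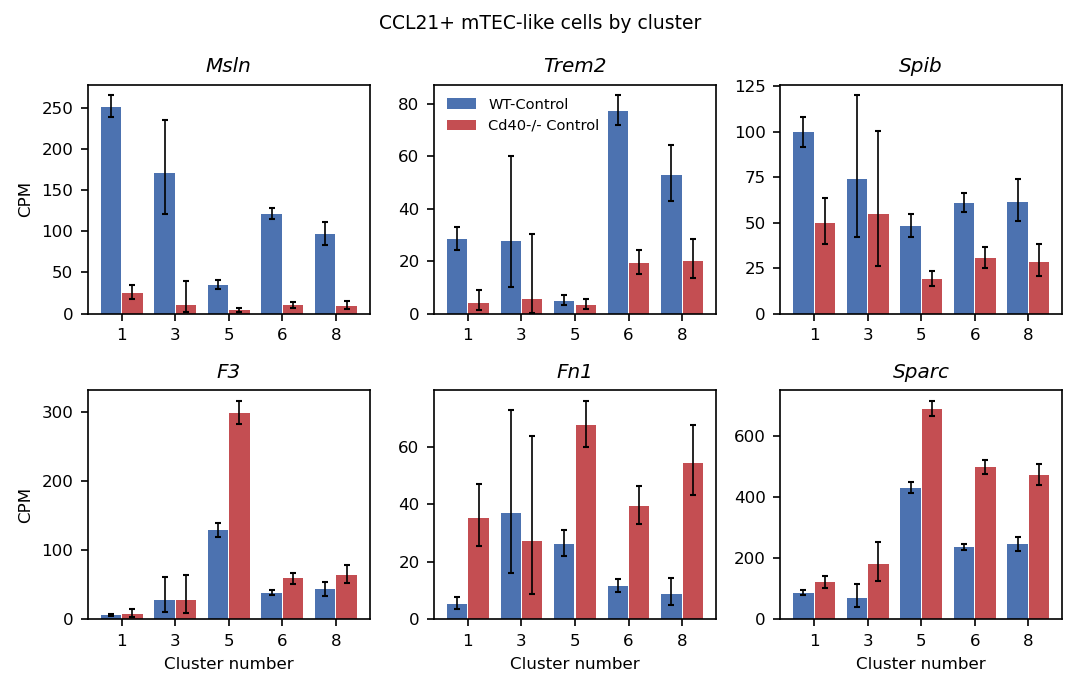
Levels (CPM) of 3 lower genes (top) and 3 higher genes (bottom) in CCL21+ mTEC-like cells of 5 clusters, in WT-Control (blue) and Cd40-/- Control (red), with exact 95% Poisson intervals as error bars. Msln is lower in each cluster of Cd40-/- Control, for example 121 and 9.72 CPM in cluster 6, while F3 is highest in cluster 5 in both libraries.

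Of the other leading genes of the CCL21+ gate, Chil4, a chitinase-like protein gene, was 28.3 and 168 CPM in the control pair but 1.25 and 0.357 in the RANKL-Ab pair. Krt15, a basal keratin gene, was 22.4 and 73.7 CPM, Prg4, the lubricin gene, 4.13 and 31.2, and the GTPase gene Rasl11a 36.5 and 108. Krt15 and Rasl11a had ratios of 0.71 and 0.68 in the RANKL-Ab pair, while Chil4 and Prg4 had too few UMIs there to be compared. Single cells held 18.4% and 20.1% of the UMIs of Chil4 and 13.6% and 18.9% of those of Prg4. S100g, a calcium-binding protein gene, was lower, with 64.3 and 12.4 CPM, and single cells held 14.7% and 8.61% of its UMIs. Ccl21a itself was read in cells gated on the other markers of the class, where it was 25552 CPM in WT-Control, 19676 in Cd40-/- Control, 26627 in WT-RANKL-Ab and 37735 in Cd40-/- RANKL-Ab. Its levels in the 2 Cd40-/- libraries thus lay on either side of those in the wild-type libraries, and close paralogs of Ccl21a share its reads.

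Aire+ mTEC-like cells were the class with the fewest differences. Of 17331 genes, 10 (0.0577%) were higher and 39 (0.225%) lower past the fold, and 5 and 65 with TMM scaling. Beside Cd40 and Msln the lower genes not shared by all gates included Slpi, a secreted protease inhibitor gene, with 160 and 46.1 CPM, which lies near Cd40, and Tff3, a mucosal trefoil factor gene, with 247 and 81.8 CPM. Higher genes included Ceacam9, with 8.45 and 37.5 CPM, the giant muscle protein gene Ttn, with 45.6 and 132, Adam23, with 22.8 and 57.6, and the cytokine gene Il9, with 36.5 and 85.3. One Cd40-/- Control cell held 24.4% of the UMIs of Il9. Aire, read in cells gated on the other 3 markers, was 583 CPM in WT-Control and 629 in Cd40-/- Control, and 80.0% and 77.8% of these cells had a UMI of it.

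Of the 19 tissue-restricted antigen genes with enough UMIs in Aire+ mTEC-like cells, 0 passed the fold, and their median was 0.02 against 0.05 for all genes. Of 11 MHC class II presentation genes 0 passed the fold, with a median of -0.14 and 2 ratios above 0. The costimulatory ligand gene Cd80 was 88.6 and 52.3 CPM in Aire+ cells, and the chemokine genes Ccl5 and Ccl22 were 1103 and 565 CPM and 66.7 and 33.5 CPM, all lower but short of the fold. Cd274, which encodes the checkpoint ligand PD-L1, was 31.2 and 44.5 CPM there and 25.9 and 65.0 CPM in CCL21+ cells, where it passed the fold at 1.06, as did the PD-L2 gene Pdcd1lg2 with 33.5 and 78.9 CPM.

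In TA-TEC-like cells, 25 of 11430 genes (0.219%) were higher and 39 (0.341%) lower past the fold, and 18 and 60 with TMM scaling. The 22 S-phase and mitotic genes had a median of 0.07, that of all genes, and 0 of them passed the fold. Of the cTEC-associated genes, 6 of the 14 with enough UMIs were higher past the fold, with a median of 0.64. They included the thymocyte-attracting chemokine gene Ccl25, with 78.7 and 253 CPM, Prss16, with 76.6 and 236, Psmb11, with 19.0 and 67.4, and Ly75, with 7.94 and 37.8. Cxcl12, a further chemokine gene of cTECs, was 26.5 and 81.9 CPM. The higher median was not particular to this gate. The cTEC-associated median was 0.65 in progenitor-like, 0.57 in tuft-like and 0.37 in CCL21+ cells, against 0.19, 0.08 and 0.07 for all genes. In Aire+ cells it was 0.13 and in cTEC-like cells 0.04, against 0.05 and 0.17. The median over TA-TEC-like cells of the summed cTEC markers was 1.92 UMIs per 10000 in WT-Control and 2.01 in Cd40-/- Control, so by this score the middle cells of the 2 libraries were close. Cycling cells were assigned to the TA-TEC-like gate before the cTEC-like gate, so a cycling cell with cTEC markers was counted here. T cell markers in the gate were 14.9 and 34.1 CPM, and their part and that of the larger cTEC-like share were not tested.

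Other named genes of the TA-TEC-like gate were the histone gene Hist1h1b, with 145 and 354 CPM, Fxyd2, a regulator of the sodium pump, with 41.3 and 124, and Ttn, with 57.0 and 150. Snhg11 was 5.68 and 31.1 CPM and Tmem131l 20.1 and 60.8. Inmt was 0.588 and 14.7 CPM, from 6 and 143 UMIs. The selenoprotein gene Gpx3 was lower, with 98.2 and 23.2 CPM, as was the kallikrein gene Klk1b9, with 33.8 and 2.68 CPM, of which single cells held 38.0% and 53.8% of the UMIs.

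In cTEC-like cells, 110 of 8729 genes (1.26%) were higher and 81 (0.928%) lower past the fold, and 55 and 105 with TMM scaling. This gate held 124 cells in WT-Control and 683 in Cd40-/- Control, so that WT-Control set the precision. The cTEC-associated genes as a group were near 0, with a median of 0.04 and 0 of 14 past the fold. Psmb11 was 3330 and 2694 CPM, Ccl25 10996 and 9914, Foxn1, the master transcription factor of TECs, 156 and 156, and Dll4, the Notch ligand gene, 67.4 and 109. Psmb11, Prss16, Ccl25, Tbata and Ly75 were also used to gate these cells, so their levels are a description of the gate.

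The most positive log2 ratio in cTEC-like cells was that of Igfbp5, an insulin-like growth factor binding protein gene, with 64.3 and 372 CPM. Igfbp5 was 305 and 311 CPM in the RANKL-Ab pair, so the low level was that of WT-Control alone. Fabp4, a fatty acid binding protein gene, was 50.3 and 238 CPM in the control pair and 39.9 and 46.3 in the RANKL-Ab pair. Pds5b, a cohesin regulator gene, was 273 and 913 CPM, and 386 and 696, and Wdfy1 was 7.75 and 54.1, and 13.8 and 29.6. Dpysl2 and Gas1 were higher as well, with 18.6 and 80.2 CPM and 10.1 and 52.7 CPM. Of the 110 higher genes, 2 were higher past the fold in the RANKL-Ab pair, Fosb and Socs3, where the background was 0.463%. Of the 53 lower genes with enough UMIs there, 1 was lower, Cd40, and 9 were higher, where 0.174% of genes were lower.

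The 8 most negative ratios in cTEC-like cells rested on few cells. They were those of Lgals7, Cst8, Gm14851, Defb6, Cytl1, Spink7, Dppa3 and BC037156, and single cells held between 78.5% and 100% of their WT-Control UMIs. Lgals7, a keratinocyte galectin gene, had 219 UMIs in WT-Control, 89.5% of them in 1 cell. Cst8 had 120 UMIs in WT-Control and 0 in Cd40-/- Control, which allows up to 0.606 CPM there.

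In progenitor-like cells, 238 of 6622 genes (3.59%) were higher and 96 (1.45%) lower past the fold, 120 and 146 with TMM scaling, and 193 and 134 with totals that left out Ccl21a, mitochondrial and ribosomal protein genes. The gate held 145 and 318 cells. Immediate early genes led the higher ones, since 10 of the 18 AP-1 and immediate early genes with enough UMIs passed the fold, with a median of 1.02 against 0.19 for all genes. The transcription factor gene Atf3 was 35.3 CPM in WT-Control and 223 in Cd40-/- Control, and 153 and 191 in the RANKL-Ab pair. Egr1 was 116 and 522 CPM, and 220 and 476, Fos 396 and 972, and 692 and 1204, and Fosb 54.3 and 198, and 82.0 and 168. The lowest level of each of these 4 genes was that of WT-Control, and WT-RANKL-Ab lay between it and both Cd40-/- libraries for Egr1, Fos, Fosb and Atf3.

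Other higher genes of progenitor-like cells were Nfkbiz, an inhibitor-like NF-kB protein gene, with 9.53 and 48.0 CPM, the endopeptidase gene Phex, with 4.77 and 44.4, and Pds5b, with 31.5 and 113. Apod was 4.77 and 88.3 CPM, but 1 cell held 68.7% of its UMIs in Cd40-/- Control. Of the 236 higher genes with enough UMIs in the RANKL-Ab pair, 5 were higher there, Cxcl10, Zfp36, Ier2, Apod and Egr1, where 0.593% of genes were, and 1 was lower. Of the 75 lower ones, 7 were lower, where 0.289% of genes were, and 9 were higher. The 8 most negative ratios were of Iapp, Bpifa1, Scgb3a2, Atp6v1g3, Wfdc17, Pomc, Trf and Spp1, hormone and secretory genes of other tissues for the most part, and single cells held 52.7% to 100% of their WT-Control UMIs. Iapp, the amylin gene, had 916 UMIs in WT-Control and 28 in Cd40-/- Control, where 1 cell held 100% of them. Fibroblast markers in the gate summed to 112 and 31.2 CPM, although 2 of the 5 members were higher in Cd40-/- Control. The part of fibroblast markers in these values was not tested.

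In tuft-like cells, with 442 and 287 cells, 67 of 8603 genes (0.779%) were higher and 64 (0.744%) lower past the fold, and 35 and 118 with TMM scaling. In the RANKL-Ab pair 0.647% of genes were higher and 1.81% lower. Of 40 higher genes with enough UMIs there, 2 passed the fold in the same direction and 6 in the opposite one. Of 55 lower genes, 7 passed it in the same direction and 5 in the opposite one. The 8 most positive ratios were of Lcn2, Camp, BC037156, Tff2, Sbpl, Cdkn1c, Reg3g and Cck. Lcn2, a siderophore-binding protein gene, was 13.3 and 129 CPM, and Reg3g, an antimicrobial lectin gene, 312 and 1263, but single Cd40-/- Control cells held 74.0% and 51.4% of their UMIs. Zfp428 was lower with 311 and 80.0 CPM and was spread over cells. Hba-x, Reg1 and Rbp4 were lower through single WT-Control cells that held 96.9%, 93.9% and 98.7% of their UMIs.

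The AP-1 and immediate early list had a median above that of all genes in each gate. This median log2 ratio was 0.31 in CCL21+, 0.30 in Aire+, 0.41 in TA, 0.64 in cTEC, 1.02 in progenitor-like and 0.32 in tuft-like cells, and stayed above 0 in each gate under every alternative tried. Members higher past the fold numbered 10 of 18 in progenitor-like and 6 of 20 in cTEC-like cells, where 3.59% and 1.26% of all genes were, 1 of 25 in CCL21+ cells, and 0 of 25, 0 of 23 and 0 of 22 in Aire+, TA-TEC-like and tuft-like cells. The median share of mitochondrial UMIs was also higher in each of these gates, for example 2.60% and 3.52% in CCL21+ cells and 2.42% and 2.70% in progenitor-like cells. Of 12 heat shock genes 3 were higher past the fold in progenitor-like cells. The part of cell quality in these values was not tested. In the RANKL-Ab pair the medians were 0.81 in CCL21+, 0.38 in cTEC, 0.62 in progenitor-like and 0.24 in tuft-like cells.

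The MHC class I presentation list had 0 of 12 members past the fold in 5 gates. In progenitor-like cells 2 of 11 were lower past it, where 1.45% of all genes were. The medians of the list ran from -0.39 in tuft-like to -0.17 in TA-TEC-like cells, and each stayed below 0 under every alternative tried. Psme2, a subunit of the interferon-inducible proteasome activator, was the lowest member in each gate, for example 876 and 515 CPM in Aire+ cells and 377 and 216 in CCL21+ cells. Psme2 was 176 and 172 CPM in CCL21+ cells of the RANKL-Ab pair. B2m, the class I light chain gene, was 12044 and 10437 CPM in CCL21+ cells, and 6900 and 5197 in the RANKL-Ab pair. H2-K1 was 3788 and 4465 CPM, above 0 in ratio like Tapbp, and H2-D1 2967 and 2069. The 2 members past the fold in progenitor-like cells were Psme2 and H2-D1.

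**Figure D4:**
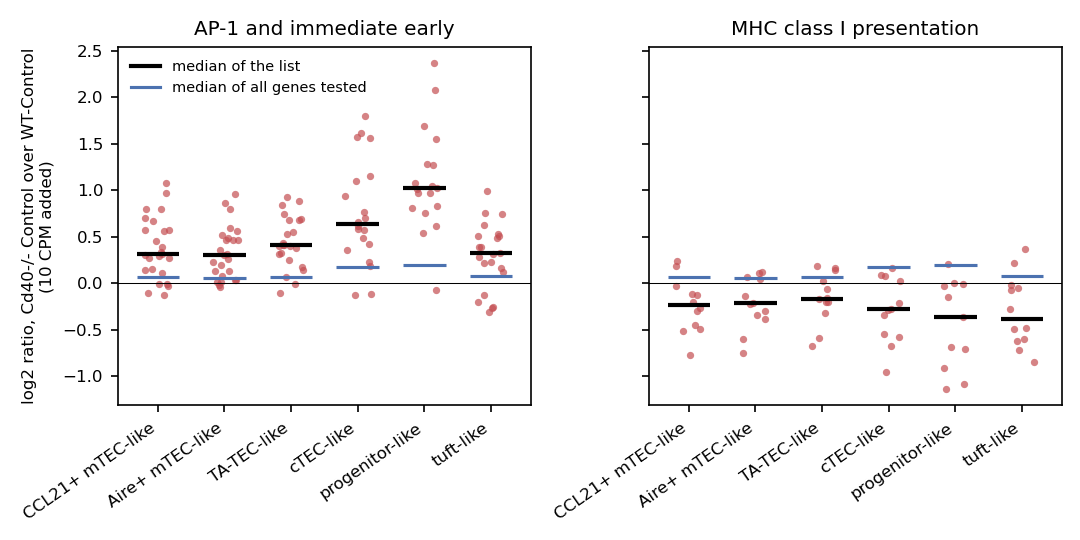
Log2 ratios of Cd40-/- Control over WT-Control (10 CPM added) of single genes (red points) in the AP-1 and immediate early list and the MHC class I presentation list, by gate, with the median of the list (black) and of all genes compared (blue). The AP-1 median is highest in progenitor-like cells, at 1.02, and each class I median lies below 0.

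Few genes of the machinery through which CD40 and RANK signal passed the fold. Of the 15 genes of the CD40 and RANK axis, Cd40 alone passed the fold, in 4 gates. Tnfrsf11a, which encodes RANK, was 108 and 122 CPM in Aire+ cells and 71.3 and 56.8 in CCL21+ cells. Of the NF-kB subunits and feedback targets, 0 of 20 passed the fold in CCL21+, Aire+ and TA-TEC-like cells and 0 of 19 in tuft-like cells. In cTEC-like cells 1 of 19 was higher and in progenitor-like cells 2 of 16, where 1.26% and 3.59% of all genes were. In CCL21+ cells the median of this list was 0.07, that of all genes, and it was -0.03 with TMM scaling. Nfkb1, which encodes the p105 precursor, was 63.7 and 117 CPM there, while Nfkb2, which encodes the p100 precursor of the non-canonical pathway, was 71.1 and 44.8 and Relb 121 and 100.3.

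Interferon-stimulated genes, 42 in the list, had medians of -0.01 in CCL21+, 0.09 in Aire+, -0.01 in TA-TEC-like, 0.03 in cTEC-like, -0.17 in progenitor-like and -0.25 in tuft-like cells. Members lower past the fold numbered 3 of 33 in progenitor-like and 2 of 34 in tuft-like cells, where 1.45% and 0.744% of all genes were. In the other gates they numbered at most 1. The median was -0.90 in CCL21+ cells of the RANKL-Ab pair. Chemokine genes had a median of -0.57 in CCL21+ cells, with 10 of 12 ratios below 0, and Ccl19, a ligand of CCR7 like CCL21, was 252 and 137 CPM. Cxcl12 stood apart from them with higher levels in the Cd40-/- library in each gate, for example 86.1 and 164 CPM in CCL21+ cells. Cxcl12 was also among the leading genes of the cTEC-like gate, whose share was 1.21% in WT-Control and 7.95% in Cd40-/- Control. The part of RNA from cTEC-like cells in its levels in other gates was not tested. Ribosomal protein genes had medians from -0.45 to -0.14. In progenitor-like cells 3 of the 12 heat shock genes were higher past the fold, where 3.59% of all genes were. They were Dnajb1 (62.0 and 188 CPM), Hspa1a (295 and 681) and Hspa1b (26.7 and 70.8). In cTEC-like cells 1 of the 12 was higher, where 1.26% of all genes were, and in the other gates 0 were. In the G1 regulator list 1 of 6 members was higher past the fold in cTEC-like cells, and 0 passed it in the other gates. The list of 13 metallothionein and oxidative stress genes had at most 2 members past the fold in either direction in a gate, where 0.0577% to 3.59% of all genes were.

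A small set of genes differed in the same direction in every gate. Of 9415 genes with enough UMIs in at least 4 of the 6 gates, 2 were higher and 16 lower past the fold in each gate in which they were compared. The higher ones were Erh, a splicing factor gene, with 106 and 273 CPM over all cells, and Gm42418, a non-coding gene at chr17:39846958-39848788, with 2063 and 6505 CPM. Among the lower ones were respiratory chain and ATP synthase genes (Atp5e, Ndufa3, Uqcr11, Cox17 and Usmg5) and ribosomal protein genes (Rplp2, Rps27rt, Rps29, Rpl36al and Rpl36), with Bola2, Fam25c, Wdr89, 2010107E04Rik, H2-Q4 and Gm47283. Rpl36 was 1743 CPM in WT-Control, 455 in Cd40-/- Control, 487 in WT-RANKL-Ab and 1156 in Cd40-/- RANKL-Ab. The order of the genotypes was thus the opposite in the RANKL-Ab pair, as for 15 of the 16 lower genes. Several of these genes have near-identical copies elsewhere in the genome, between which reads may be split.

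The 16 lower genes had a median transcript length of 447 bases against 2622.5 for all genes in the comparison, and 10 of them were shorter than 500 bases. Transcript length also went with the ratios of genes in general. In CCL21+ cells the median ratio was -0.22 for transcripts of up to 500 bases and 0.29 for those over 5000, and in progenitor-like cells -0.46 and 0.57. In the RANKL-Ab pair transcripts of up to 500 bases had medians of 0.10 in CCL21+ and 0.34 in progenitor-like cells, the opposite sign. When each ratio was centred on genes of like length, 28 genes were higher and 53 lower past the fold in CCL21+ cells, 29 and 98 in cTEC-like cells and 54 and 111 in progenitor-like cells. The AP-1 median in progenitor-like cells was then 0.87 and the matrix median in CCL21+ cells 0.39, and Msln stood at -2.72 in CCL21+ cells.

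**Figure D5:**
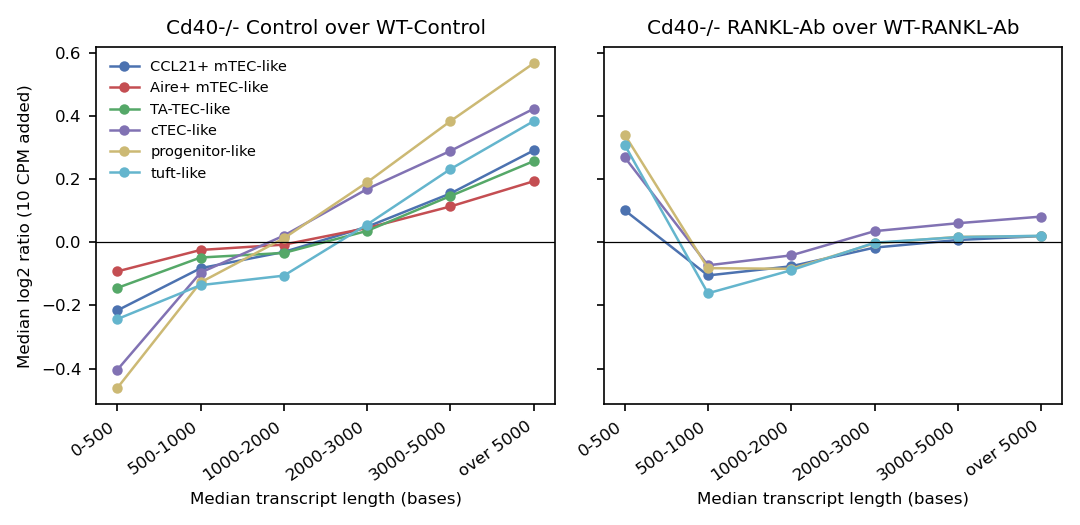
Median log2 ratio (10 CPM added) of genes by median transcript length in bases, for each gate, in the control pair (left) and in the RANKL-Ab pair (right, gates with at least 50 cells in both libraries). The control pair climbs with length in each gate, from -0.46 to 0.57 in progenitor-like cells, while the RANKL-Ab pair is above 0 for transcripts of up to 500 bases.

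Genes near Cd40 were examined because a knockout allele can carry flanking sequence from another strain. Of the 55 genes within 5 Mb of Cd40 with enough UMIs in at least 4 gates, 0 were past the fold in every gate. Sdc4, a heparan sulfate proteoglycan gene at chr2:164424247-164443887, came closest, with ratios from 0.70 to 1.07 in the 6 gates and past the fold in 3. Sdc4 was 87.9 and 190 CPM over all cells, and 231 and 322 in the RANKL-Ab pair. Slpi, at chr2:164354070-164389095, had ratios from -1.59 in Aire+ cells to 1.43 in tuft-like cells and was past the fold in 3 of 4 gates. Whether flanking sequence has a part in these values was not tested. The median over gates of their ratios ranged from -0.89 to 0.99, with a median of 0.08.

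Over all cells, erythroid markers summed to 229 CPM in WT-Control and 67.5 in Cd40-/- Control, T cell markers to 70.1 and 395, and parathyroid markers to 21.4 and 144. Erythroid markers were 14.0 and 4.84 CPM in CCL21+ cells, and T cell markers 10.4 and 12.1 CPM there. All 3 marker lists had UMIs of every member in both libraries over all cells. Only 1 of the 3 parathyroid markers was higher in Cd40-/- Control, against all 8 T cell markers and 0 of the 5 erythroid ones.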

How the data were processed

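Droplet-based scRNA-seq was performed by the authors on sorted TECs of 4 conditions, 1 library of 3 pooled mice each, and the 2 control IgG libraries were compared here. Reads were trimmed by the authors (Fastp), and Cell Ranger gave UMI counts against the mm10 genome, version 5.1 in the submitters' processing notes and 5.0.1 in the file headers. The deposited values are whole UMI counts per gene and called cell, without normalization. The paper names kit v3.1 and the labels kit v2.

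Barcodes entered with 200 genes or more and mitochondrial UMIs of no more than 25%, and no doublet caller was run. Gates used summed markers per 10000 UMIs, and their limits were set after the marker distributions were seen. T cell-like cells with at least 30 cTEC marker UMIs per 10000 formed a class of their own, and a cTEC-like or progenitor-like cell had to lie below 20 for Aire+ markers. Members and lists were chosen with earlier results of these data known. The rule for named genes took the 8 largest rises and falls per gate, genes past the fold in every gate and the members of the lists. Gate markers and mitochondrial genes were left out of gene comparisons.

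Shares have exact Clopper-Pearson intervals, CPM values exact Poisson intervals and ratios exact conditional binomial intervals. PCR-amplified reads were collapsed to UMIs, and all intervals and limits cover counting error only. A count of 0 was read as up to 3 UMIs. Tables were made with pandas 2.3.3, numpy 2.4.6 and Python 3.11.15, intervals with scipy 1.17.1 and plots with matplotlib 3.10.9, with Scanpy 1.11.5 for a Leiden clustering of the 2 control libraries (2000 variable genes, 30 components, 20 neighbours, resolution 0.8) and edgeR 4.0.16 for TMM factors alone. Transcript lengths came from GENCODE annotation of GRCm38, matched to 30934 of 31053 gene IDs. The calculations were tested on simulated data. Alternatives were another scaling, 1 CPM added, other UMI and cell filters, other gate limits and clusters in place of gates.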

Additional observations from a re-analysis of the deposited data

Results flagged for a closer look

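Of the genes lower past the fold in every gate of Cd40-/- Control, 4 had ratios past the fold in the opposite direction in the RANKL-Ab pair over all cells. The log2 ratio of Ndufa3 was -1.01 in the control pair and 1.07 in the RANKL-Ab pair. That of Rps29 was -1.41 and 1.27, that of Cox17 -1.91 and 1.11, and that of Rpl36 -1.91 and 1.23. Each condition is 1 library, so the difference between the pairs was not tested.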

How the results depend on the processing

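Each class share whose interval was clear of 0 kept its direction under every alternative tried, while sizes and counts moved. The shares of the Hes6 gate and of keratinocyte-like, microfold-like and neuroendocrine-like cells, whose intervals spanned 0, changed sign with clusters. The log2 ratio of the CCL21+ share was -0.45 among cells with at least 2000 UMIs, -0.63 with gate limits 1.5 times as high and -0.42 with TECs alone as the denominator. That of the Aire+ share was -0.39 among cells with at least 2000 UMIs, -0.37 with cells thinned to 1000 UMIs, -0.63 and -0.38 with limits multiplied and divided by 1.5, -0.36 among TECs alone and -0.39 with clusters. With limits 1.5 times as high the ratio for cells with T cell and cTEC markers was 4.39, and with clusters the ratio under the progenitor-like name was 0.73. That name fell on clusters 5 and 7, and 92.8% of the cells of cluster 5 (667 and 742 cells) passed the CCL21+ gate, while cluster 7 held 148 and 395 cells, so cluster values under this name mostly describe CCL21+ cells.

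Counts of genes past the fold depended most on the added level. With 1 CPM added they were 766 in CCL21+, 393 in Aire+, 430 in TA, 758 in cTEC, 724 in progenitor-like and 487 in tuft-like cells, 100 and 107 genes were higher and lower in both pairs, and the matrix median in CCL21+ cells was 0.79. Mean CPM over cells gave 557 in cTEC-like and 199 in tuft-like cells, and a minimum of 200 UMIs gave 143 in progenitor-like and 63 in tuft-like cells. Cells with no T cell marker UMI gave 354 in the cTEC-like gate. Clusters 5 and 7 together gave 147 genes and an AP-1 median of 0.67 in place of the progenitor-like gate. TMM scaling left 8 genes higher in both pairs and shifted the median of all genes by -0.14 in progenitor-like and -0.15 in tuft-like cells. Totals without Ccl21a, mitochondrial and ribosomal protein genes gave 21 lower in both pairs. Centring on transcript length, chosen after seeing the data, gave 81 genes in CCL21+, 127 in cTEC-like and 165 in progenitor-like cells.

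Ratios that changed sign were those of Trf (0.052) and Camp (-0.58) with higher limits, of Bpifa1 (2.15), Wfdc17 (0.058), Reg3g (-1.01) and Rbp4 (0.044) with clusters, and, without the cell with the most UMIs of each gene, of Cytl1 (0.31), Trf (0.032) and the chemokine median of cTEC-like cells (0.11). The last setting and that without shared barcodes were also added after seeing the data. The cause of these changes was not tested. No paired analysis was possible because each condition is 1 library. Depth limits the small gates most, where WT-Control held 124 cTEC-like and 145 progenitor-like cells.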
